A study of Caenorhabditis elegans with 2 samples.

Results

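The genes described here encode the subunits of the proteasome and the numbered ubiquitin-conjugating enzymes of Caenorhabditis elegans. They were taken by symbol, as every protein-coding gene named pas, pbs, rpt, rpn or ubc with a number, and there were 54 of them among 19973 nuclear protein-coding genes. Of these, 14 encode the proteasome core (7 pas and 7 pbs genes), 19 the cap (6 rpt and 13 rpn genes) and 21 conjugating enzymes (ubc). The measurement was where the transcription factor GMEB-2 was found near their promoters.

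The proteasome is the protease that degrades proteins marked with ubiquitin. Its core is a barrel whose outer rings are made of alpha subunits, encoded by the pas genes, and whose inner rings are made of beta subunits, encoded by the pbs genes, some of which cut the substrate. The cap carries a ring of ATPases that unfold substrates (rpt) and non-ATPase subunits that hold the cap together, bind ubiquitin or remove it (rpn). Ubiquitin reaches a substrate through an activating enzyme, a conjugating enzyme and a ligase, and some conjugating enzymes carry a ubiquitin-like protein in its place. GMEB-2 belongs to the family of the glucocorticoid modulatory element binding proteins, which bind DNA in vertebrates.

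The data came from chromatin immunoprecipitation followed by sequencing (ChIP-seq) of whole late embryos of mixed sex, 5 h after egg bleaching. The worms were of strain OP622, with the genotype unc-119(tm4063) III and the integrated transgene wgIs622, from which GMEB-2 is made with GFP and FLAG at its C terminus; the precipitating antibody was against GFP. There were 2 biological replicates of this 1 group and no group without the transgene, so no comparison between conditions was possible. The values describe a tagged transgene product in all cells of the embryo at once.

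Each promoter was read from 1000 bp upstream to 500 bp downstream of the gene's annotated 5′ end. In that window the peak summit with the highest signal was taken from each of 4 deposited lists on build ce11: 634 peaks that passed the irreproducible discovery rate (IDR) threshold of the authors, 30000 relaxed peaks called on both replicates jointly, and 30000 relaxed peaks of each replicate alone. The signal is the authors' own value for a peak over the control. Rank 1 is the strongest peak of a list, and ranks were set side by side only as ranks, since each list has its own scale. The 634 IDR peaks were the 634 strongest peaks of the joint list. In that list the signal ran from 26.2 to 1083, with a median of 36 and 50.1 at rank 5000, so the last ranks were close to one another in signal. Read depth is unknown, and no interval was computed from it.

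The sequences at 6 of the summits are shown because the strongest results turn on them. Each is the stretch within 100 bp of the joint summit on the strand of its gene, read from the RefSeq WBcel235 genome, which is ce11. The ubc-6 stretch is chrII:7478944-7479144 on the plus strand, at the only one of the 54 genes with an IDR peak, and capitals mark the arms of an inverted repeat. The ubc-8 stretch is chrIV:2706760-2706960 on the minus strand, in an intron of the gene, and capitals again mark inverted repeat arms. The rpn-7 stretch is chrIV:9316216-9316332 on the plus strand, shortened to leave out the neighbouring gene's untranslated region, and capitals mark a word that it shares with ubc-6. In ubc-7, chrIII:9631331-9631531 on the minus strand, and ubc-9, chrIV:4650673-4650873 on the plus strand, capitals mark GTGCGC. The rpt-6 stretch, chrIII:12370076-12370276 on the plus strand, is shown with nothing marked, as the strongest proteasome promoter.
ubc-6: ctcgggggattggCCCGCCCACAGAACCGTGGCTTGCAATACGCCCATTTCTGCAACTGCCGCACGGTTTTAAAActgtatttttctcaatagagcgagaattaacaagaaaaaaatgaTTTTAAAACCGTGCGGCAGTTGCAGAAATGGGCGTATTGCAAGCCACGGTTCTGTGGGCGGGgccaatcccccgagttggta
ubc-8: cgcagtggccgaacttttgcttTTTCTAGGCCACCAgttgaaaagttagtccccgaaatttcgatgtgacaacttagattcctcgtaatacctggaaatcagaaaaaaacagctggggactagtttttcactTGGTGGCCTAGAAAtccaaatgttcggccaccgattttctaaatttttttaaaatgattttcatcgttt
rpn-7: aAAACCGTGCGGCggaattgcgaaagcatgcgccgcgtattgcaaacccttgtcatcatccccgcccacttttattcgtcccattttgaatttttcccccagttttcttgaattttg
ubc-7: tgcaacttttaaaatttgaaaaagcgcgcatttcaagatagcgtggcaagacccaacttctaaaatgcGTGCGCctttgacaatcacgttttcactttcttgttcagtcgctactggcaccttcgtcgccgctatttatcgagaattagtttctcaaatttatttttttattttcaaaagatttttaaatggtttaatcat
ubc-9: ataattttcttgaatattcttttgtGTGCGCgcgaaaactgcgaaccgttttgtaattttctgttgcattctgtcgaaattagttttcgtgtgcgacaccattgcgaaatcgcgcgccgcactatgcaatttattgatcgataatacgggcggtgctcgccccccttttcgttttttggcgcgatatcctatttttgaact
rpt-6: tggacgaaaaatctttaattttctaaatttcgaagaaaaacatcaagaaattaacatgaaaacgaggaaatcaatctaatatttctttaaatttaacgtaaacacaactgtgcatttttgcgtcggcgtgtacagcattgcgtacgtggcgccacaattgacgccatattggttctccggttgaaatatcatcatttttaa

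Most of the 54 genes had a GMEB-2 summit in the relaxed list, and their share in the IDR list was near that of all genes. In the joint relaxed list, 36 of the 54 genes (66.7%, exact 95% interval over genes 52.5% to 78.9%) held at least 1 summit, where 40.2% of all protein-coding genes had one. At joint rank 5000 or better, 13 genes (24.1%) remained beside 10.3% of all genes. With the deposited q value at 0.05 or less, 4 genes remained (7.41%) beside 4% of all genes, namely ubc-6, rpt-6, ubc-7 and ubc-12. In the IDR list there was 1 gene, ubc-6 (1.85%, exact 95% interval 0.0469% to 9.89%), beside 2.22% of all genes. None of the 33 proteasome genes was in it (exact upper limit 10.6%). With the window widened to 2000 bp upstream, 2 of the 54 genes were in it, beside 2.92% of all genes, since the proteasome gene pbs-5 then held an IDR peak. The share of these genes was thus above that of all genes in the relaxed list and not above it in the IDR list. In single replicates, the first 634 peaks held rpt-6 and ubc-6 in replicate 1 and ubc-12 in replicate 2, and the first 5000 held 13 of the 54 genes in replicate 1 and 8 in replicate 2, where they held 9.81% and 10.1% of all genes. No test was made of these shares, and the intervals treat genes as independent, although neighbours can share a summit.

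The core, the cap and the conjugating enzymes did not separate. A joint summit was present at 10 of the 14 core genes (71.4%), 13 of the 19 cap genes (68.4%) and 13 of the 21 conjugating enzyme genes (61.9%). Within rank 5000 there were 3 core genes (21.4%), 5 cap genes (26.3%) and 5 conjugating enzyme genes (23.8%). The median joint rank, with genes without a summit placed last, was 19598 for the core, 17652 for the cap and 14468 for the conjugating enzymes, and for all protein-coding genes it lay beyond the list. In the list of replicate 1 the same medians were 13208, 15462 and 11696, and in the list of replicate 2 they were 18615, 24647 and 19248. The classes stood in a different order in each of the 3 lists, so their differences were not larger than the spread between replicates.

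**Figure D1:**
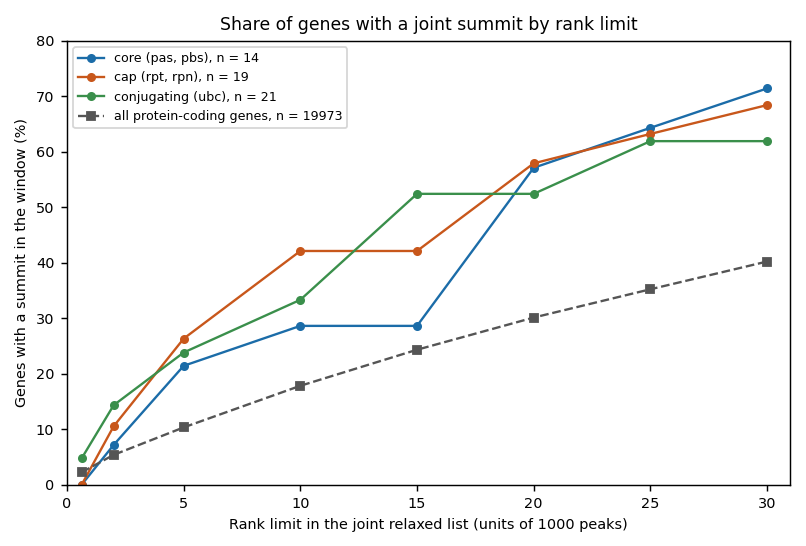
Share of genes (%, y axis) with a summit in the promoter window at or above each rank limit of the joint relaxed list (x axis, in units of 1000 peaks). Lines are the 14 core, 19 cap and 21 conjugating enzyme genes, which cross one another, and all 19973 protein-coding genes, which reach 40.2% at rank 30000 against 61.9% to 71.4% for the 3 classes.

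Of the 4 strongest promoters, those with a q value of 0.05 or less, 3 belonged to conjugating enzyme genes. These were 3 of 21 conjugating enzyme genes (14.3%, exact 95% interval 3.05% to 36.3%), beside 4% of all genes. There was 1 of 19 cap genes (5.26%, interval 0.133% to 26%) and 0 of 14 core genes (upper limit 23.2%). The intervals overlap. At ubc-6, named after the yeast enzyme Ubc6 that acts at the membrane of the endoplasmic reticulum, the joint summit was at position 7479044 of chromosome II, 143 bp upstream of the 5′ end. It ranked 558 with a signal of 98.0 in the joint list, 453 with a signal of 47.3 in replicate 1 and 1059 with a signal of 49.4 in replicate 2. Both replicates therefore placed it among their strongest peaks, although replicate 2 did not hold it within its first 634. The same summit lay in the window of the divergent gene aka-1, so it cannot be given to one of the genes alone.

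The ubc-6 summit lay in repeated sequence. The arms marked in its sequence were 62 bases each, perfect reverse complements 44 bases apart, and no other window had arms as long among 6910 distinct best summits of protein-coding genes, in which the median was 7 bases. Of the 36-base words in the window 19.9% occurred once in the nuclear genome, and one of them occurred 84 times, counting both strands. At 60 places in the genome at least 1 of its repeated words was found, and 20 windows of the joint list held one, 7 of them within rank 5000 and 1, that of ubc-6, within the IDR list. The other 35 genes with a joint summit had windows made wholly of words that occur once, while 11.6% of all best-summit windows did not. How reads with several matches were placed is not given in the sources used here, and the part of the repeat in the ubc-6 value was not tested.

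At ubc-7, named after the yeast enzyme Ubc7 of endoplasmic reticulum associated degradation, the summit was at position 9631431 of chromosome III, 264 bp upstream. It ranked 961 with a signal of 77.9 in the joint list, 670 with a signal of 40.9 in replicate 1 and 2969 with a signal of 38.2 in replicate 2. No other protein-coding gene's window held it. At ubc-12, which carries the ubiquitin-like protein NEDD8 to cullins, the summit ranked 1024 jointly with a signal of 76.6, but 24458 with a signal of 14.4 in replicate 1 and 587 with a signal of 60.5 in replicate 2. The ubc-12 promoter was thus strong in replicate 2 alone, and its summit, 260 bp upstream, also lay in the window of the divergent gene rbm-3.2 and nearer to the 5′ end of that gene.

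The other conjugating enzymes within rank 5000 were ubc-9 and ubc-8. At ubc-9, which carries the ubiquitin-like protein SUMO, the summit 271 bp upstream ranked 2202 with a signal of 61.6 jointly, 5679 with a signal of 23.9 in replicate 1 and 2520 with a signal of 39.7 in replicate 2. The gene F29B9.7 ends close upstream of ubc-9 on the same strand, and ubc-9 was the only one of the 13 genes with such a neighbour. At ubc-8 the summit lay 378 bp downstream, in an intron, and ranked 4754 with a signal of 50.8 jointly, 6143 in replicate 1 and 9444 in replicate 2. Just outside rank 5000 was ubc-25, at 6194 with a signal of 47.4, which ranked 1677 in replicate 1 and 29276 in replicate 2.

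Among the cap genes, the ATPase gene rpt-6 had the strongest promoter. Its summit, at position 12370176 of chromosome III and 280 bp upstream, ranked 792 with a signal of 82.6 in the joint list. In replicate 1 it ranked 306 with a signal of 56.6, which was the best rank of any of the 54 genes in either replicate, and in replicate 2 it ranked 10068 with a signal of 27.8. It was the first of the 54 genes outside the IDR list, and was strong in replicate 1 alone. The ATPase gene rpt-1 had a summit inside its own coding exon, 370 bp downstream of the 5′ end, at joint rank 3191, and the replicates agreed closely on it at ranks 7717 and 7574. The third ATPase gene with a joint summit, rpt-2, was at rank 28069 with a signal of 27.2 and had no summit in the window in either replicate list.

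The non-ATPase subunits within rank 5000 were rpn-2, rpn-7 and rpn-9. The gene rpn-2, for a large scaffold subunit, had its summit 332 bp upstream at joint rank 1810 with a signal of 64.8, rank 2155 in replicate 1 and rank 9658 in replicate 2. At the lid gene rpn-7 the summit lay 399 bp upstream and ranked 2580 with a signal of 59.2 jointly, 19905 in replicate 1 and 1941 in replicate 2. At the lid gene rpn-9 it lay 332 bp upstream and ranked 4036 with a signal of 52.9 jointly, 1633 in replicate 1 and 6234 in replicate 2. Each of these 3 summits was shared with a divergent neighbour, C23G10.7, F49C12.9 and T06D8.9 in the same order, and the rpn-7 summit was nearer to the 5′ end of F49C12.9. Replicate 1 ranked rpn-2 and rpn-9 higher, and replicate 2 ranked rpn-7 higher.

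The core genes within rank 5000 were pbs-1, pbs-4 and pas-5. The beta subunit gene pbs-1 had its summit 263 bp upstream, in the window of the divergent gene K08D12.3 too and nearer to that gene's 5′ end, at joint rank 1879 with a signal of 64.2, rank 10364 in replicate 1 and rank 1566 in replicate 2. The beta subunit gene pbs-4 had its summit 90 bp upstream at joint rank 2944 with a signal of 57.2, and ranked 3002 in replicate 1 and 2667 in replicate 2. The alpha subunit gene pas-5 had its summit 31 bp upstream at joint rank 3205 with a signal of 56.0, and ranked 4927 in replicate 1 and 5997 in replicate 2. The 3002 of pbs-4 belonged to another summit of the window, and at the joint summit itself replicate 1 ranked 4098. The next core genes were pbs-3 at rank 6885, pbs-6 at 17458, pas-6 at 19241 and pas-1 at 19434, and the pas-1 summit was nearer to the 5′ end of rpoa-12.

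**Figure D2:**
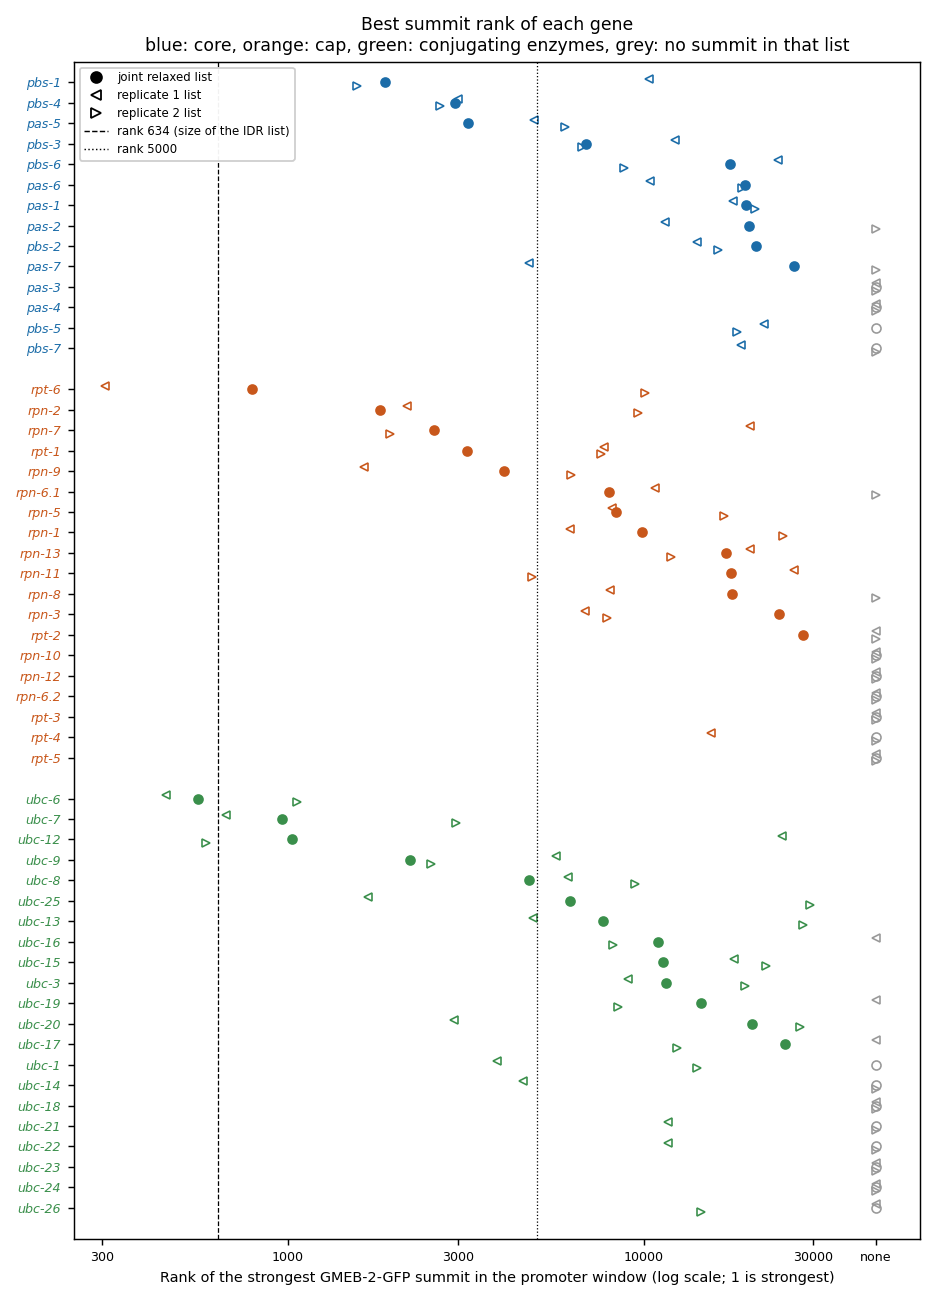
Rank of the strongest summit in the promoter window of each of the 54 genes (x axis, log scale, 1 is strongest), with filled circles for the joint list, left triangles for replicate 1, right triangles for replicate 2, and grey markers at the right edge where a list had no summit. The dashed line is rank 634, which ubc-6 alone passes in the joint list, and the dotted line is rank 5000, which 13 genes pass.

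In 10 genes none of the 3 relaxed lists had a summit in the window. They were the alpha subunit genes pas-3 and pas-4, the ATPase genes rpt-3 and rpt-5, rpn-6.2, the ubiquitin receptor gene rpn-10, the lid gene rpn-12, ubc-18, ubc-23 and ubc-24. Another 8 genes had no joint summit but 1 in a replicate list, among them pbs-5 at rank 21850 in replicate 1 and 18300 in replicate 2, and ubc-1, a relative of yeast Rad6, at 3880 and 14085. Without a joint summit were thus 18 of the 54 genes, while 11935 of all 19973 protein-coding genes had none. The share of all genes without a summit in any of the 3 lists is not given here. The divergent pair ubc-21 and ubc-22 shared 1 summit, at rank 11696 of replicate 1. All 7 pbs genes had a summit in the list of replicate 1, beside 41.2% of all protein-coding genes, so no pbs gene was among the 10. In the joint list 5 of the 7 pbs genes had a summit, as did 5 of the 7 pas genes. On chromosome X, 1 of 4 genes had a joint summit and none was within rank 5000, where 35.4% of all protein-coding genes of that chromosome had a joint summit and 9.45% had one within rank 5000.

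The replicates agreed on which promoters held a summit better than on the best rank there. A summit was present in the window in 39 genes in replicate 1 and in 34 in replicate 2. It was present in both for 30 genes (55.6%), beside 25.2% of all protein-coding genes. In neither was it present for 11 of the 54 genes, beside 8615 of all 19973. In 23 genes (42.6%) summits of the replicates lay within 200 bp of each other, beside 17.7% of all genes. All 13 genes within joint rank 5000 had a summit of both replicates within 200 bp of the joint one, as did 89.4% of all genes within that rank, and 25 of the 36 genes with any joint summit did, beside 44.1% of all such genes.

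The best ranks of the replicates in these windows did not go together. Each is the best rank anywhere in the window, so the ranks of a gene can belong to different peaks. Of the 30 genes with a summit in both lists, 23 had summits of the replicates within 200 bp of each other. No correlation at the same summit was computed here. Across the 30 genes with a summit in both lists, Spearman's rho of the ranks was -0.03, as a description over genes that share both libraries, and across all 5043 such protein-coding genes it was 0.40. Among the 9 core genes it was 0.63, among the 10 cap genes -0.32 and among the 11 conjugating enzyme genes -0.11, over numbers too small to set apart. Of the 13 genes within joint rank 5000, 3 (23.1%) were within rank 5000 in both replicates, namely ubc-6, ubc-7 and pbs-4. Another 4 (30.8%) were there in replicate 1 alone, namely rpt-6, rpn-2, pas-5 and rpn-9. In replicate 2 alone there were 4 (30.8%), ubc-12, pbs-1, ubc-9 and rpn-7, and in neither 2 (15.4%), rpt-1 and ubc-8. Over all 2063 protein-coding genes within joint rank 5000 the share in both was 42%. There it was 17.2% in replicate 1 alone, 29.9% in replicate 2 alone and 10.9% in neither.

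**Figure D3:**
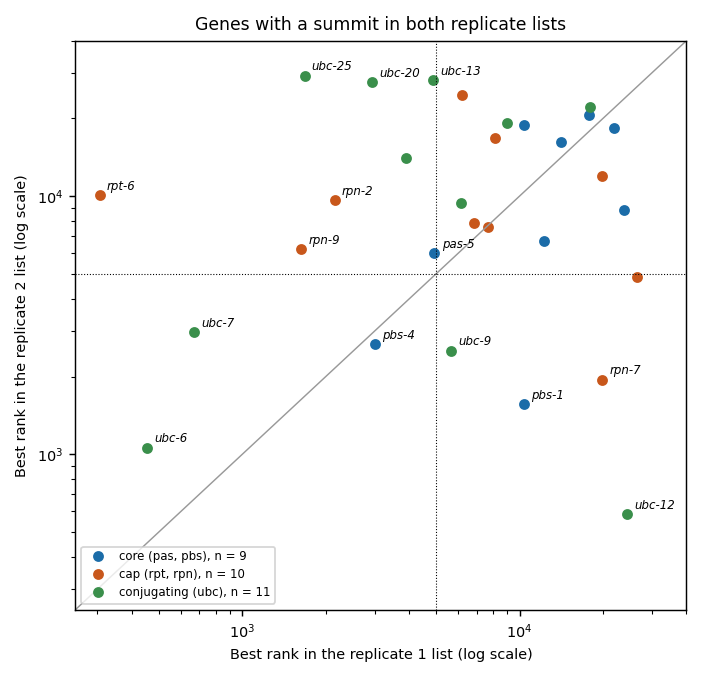
Best rank in the replicate 1 list (x axis, log scale) against that in the replicate 2 list (y axis, log scale) for the 30 genes with a summit in both, coloured by class, with the line of equal ranks and dotted lines at rank 5000. Only ubc-6, ubc-7 and pbs-4 lie within rank 5000 in both, and rpt-6 and ubc-12 lie far from the line on opposite sides.

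The summits sat mostly just upstream of the genes. Of the 36 genes with a joint summit, 31 (86.1%) had it upstream of the 5′ end, beside 71% of all protein-coding genes with one. It lay within 400 bp upstream in 23 genes (63.9%), beside 36.5% of all. Among the 13 genes within rank 5000 it did so in 11 (84.6%), beside 47.9% of the 2063, and the exceptions were rpt-1 and ubc-8. All 10 core genes with a summit had it upstream, as did 9 of 13 cap genes and 12 of 13 conjugating enzyme genes. The annotation placed 26 of the 36 summits between genes, 4 in introns and 6 in coding exons, and none in an untranslated region. At pas-2, pas-7, pbs-3 and rpn-13 the exon, and at ubc-19 the intron, belonged to another gene. The shares of these places over all genes are not given here. None of the 36 lay within 200 bp of a tRNA or snoRNA gene. Leaving such summits out moved the share of all protein-coding genes with a joint summit only from 40.2% to 39.7%.

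**Figure D4:**
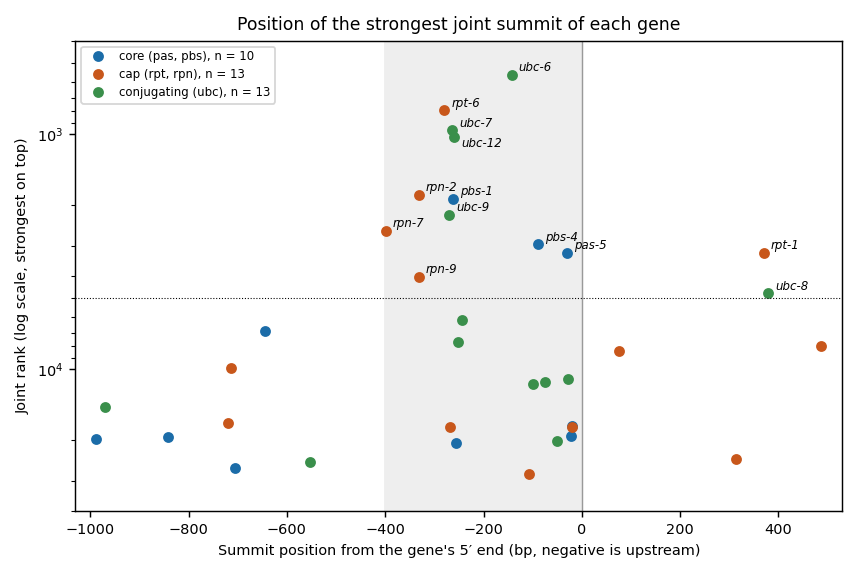
Position of the strongest joint summit from the gene's 5′ end (x axis, bp, negative is upstream) against its joint rank (y axis, log scale, strongest on top) for the 36 genes with one, coloured by class. The shaded band is the 400 bp upstream of the 5′ end, which holds 11 of the 13 genes above the dotted line at rank 5000.

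Many of these genes lie close to others, which limits how a summit can be given to them. A 5′ end on the opposite strand within 1000 bp upstream was found in 29 of the 54 genes (53.7%), against 17.7% of all protein-coding genes, and 18 of the 36 summits were also in another gene's window. In 27 of the 36 genes the summit was nearer to their own 5′ end than to any other. The shares of these summit counts over all genes are not given here. With each summit given to the nearest 5′ end alone, 29 of the 54 genes had a joint summit, beside 35.1% of all genes. Divergent layout alone went with more summits across the genome, 50.5% of divergent genes having one against 38% of the rest. Within the 54 genes the shares were 65.5% of 29 and 68% of 25. Within rank 5000 there were 6 of the 29 divergent genes (20.7%), near the 17.7% of all divergent genes. Of the 25 others, 7 were within it (28%), beside 8.74% of all genes without divergent layout. The part of layout in the share of the 54 genes was not tested. A same-strand gene ending within 500 bp upstream, the layout of genes inside operons, was found in 13 genes (24.1%), beside 20.8% of all. Of these 13, 1 was within rank 5000 (7.69%), and of the other 41, 12 were (29.3%), while over all genes the shares were 9.3% and 10.6%. Operons themselves were not read from an annotation here.

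Short words at the summits were counted on both strands within 100 bp of each best summit. TACGTA, the core word of the vertebrate proteins, was in none of the 36 stretches and in 1.49% of the 6910 best-summit stretches of all protein-coding genes. GCGCAC, with its reverse complement GTGCGC, was in 3 of the 36 (8.33%), pbs-4, ubc-7 and ubc-9, beside 7.24% of all and 25.3% of those in the IDR list. ACGCGC, which can overlap GCGCAC, was in 1 (2.78%) beside 7.51%, and CGCAAG in 2 (5.56%), rpn-3 and ubc-12, beside 5.79%. All 3 stretches with GCGCAC belonged to the 13 genes within rank 5000 (23.1%), beside 12.7% of the 1656 best-summit stretches within that rank. The other words were at lower shares in the 13 than in the 1656. ACGCGC was in 0 of the 13 beside 13.7%, TACGTA in 0 beside 1.21% and CGCAAG in 1 (7.69%) beside 9.3%. GC content averaged 39% over the 36 stretches and 41.4% over the 13, beside 40.1% and 42.8% for the best-summit stretches of all protein-coding genes.

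A longer word was shared by 3 of the strongest promoters, a comparison chosen after the data were seen. AAACCGTGCGGC, or its reverse complement GCCGCACGGTTT, was in the stretches of ubc-6, rpn-7 and ubc-12. It was picked as the word of 12 bases held by the most of the 13, so its sharing follows from the choice. No other word of 12 bases was held by as many as 3 of the 13. The picked word holds none of the short words above. In ubc-6 it stood once in each arm of the inverted repeat, and in rpn-7 once. The 36-base words of the rpn-7 stretch all occur once in the genome, but exact words would miss a diverged copy of a repeat. Both printed stretches also hold GCGTATTGCAA after the shared word on the same strand. Whether rpn-7 holds a diverged copy of the ubc-6 repeat was not tested. The word had 134 copies in the nuclear genome, and was in 18 of the 6910 best-summit stretches (0.26%) and in 2 of the 634 IDR peaks (0.315%). Within rank 5000 it was in 10 of 1656 best-summit stretches (0.604%), with these 3 among them. Inverted repeats with arms of at least 12 bases were in 3 of the 36 stretches (8.33%), at ubc-6, ubc-8 and ubc-16, beside 3.43% of all. A match is a description of the letters and not of binding.

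The same counts were made for other genes of the ubiquitin pathway. Of 107 genes listed in 9 roles, 102 were found by symbol. A joint summit was present in 67 of them (65.7%), beside 40.2% of all protein-coding genes, and within rank 5000 in 24 (23.5%), beside 10.3%. The q value was 0.05 or less in 11 (10.8%), beside 4%, and 5 (4.9%) were in the IDR list, beside 2.22%. The 5 with an IDR peak were cdc-48.1, for the segregase that pulls ubiquitinated proteins out of complexes, at rank 141 with a signal of 214, math-33, a deubiquitinating enzyme gene, at 189 with 183, the ligase gene eel-1 at 198 with 177, otub-2, another deubiquitinating enzyme gene, at 493 with 104, and ubxn-2, for a cofactor of the segregase, at 586 with 95.8. At these summits cdc-48.1 ranked 106 in replicate 1 and 165 in replicate 2, math-33 165 and 205, eel-1 156 and 236, otub-2 677 and 593, and ubxn-2 3167 and 457. The replicates stood furthest apart at ubxn-2. From the 5′ ends the 5 summits stood at -149, -526, -566, -879 and -166 bp in the same order, negative being upstream. Whether they also lay in another gene's window or near a tRNA or snoRNA gene is not given here. All but ubxn-2 had a stronger peak than ubc-6.

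By role, the 6 genes for ubiquitin and ubiquitin-like proteins all had a joint summit, and 3 were within rank 5000, the SUMO gene smo-1 at 793, the polyubiquitin gene ubq-1 at 1562 and ufm-1 at 4274. The conjugating enzyme gene let-70, whose symbol kept it out of the 54 genes, was at rank 2650. Within rank 5000 there were also 1 of 7 activating enzyme genes, 4 of 24 cullin ligase genes and 3 of 16 other ligase genes. So were 5 of 17 deubiquitinating enzyme genes and 5 of 14 genes for the segregase and shuttle factors. Of the 7 genes listed under proteasome assembly, accessory parts and regulation, 2 were, pqn-59 and png-1. The activating enzyme gene uba-5 had no joint summit in its window, so these counts leave it out. Its best summits in the window ranked 173 in replicate 1 and 155 in replicate 2. Of the 6 genes of the COP9 signalosome, a complex that removes NEDD8 from cullins, 5 had a joint summit and none was within rank 5000. With 10.3% of all genes within that rank, lists as short as this one can be at 0 without standing apart.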

How the data were processed

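ChIP-seq peak lists of 2 replicates of 1 group were used. The authors called relaxed peaks on each replicate and on both together against a control alignment and thresholded them by IDR, per the listing deposited with them. No caller, aligner, IDR threshold or handling of reads with several matches is given in the sources used here. For each peak the authors deposited a signal value and a −log10 q value, and neither was rescaled. Depth is unknown. Lists on ce10 were not used here.

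Genes and 5′ ends came from Ensembl release 115 on WBcel235, whose chromosomes hold all ce11 peaks. Summits were placed as 1-based positions with Python 3.11.15, pandas 2.3.3, numpy 2.4.6 and scipy 1.17.1, and figures were drawn with matplotlib 3.10.9. With 1 group there was no test between conditions. Counts are given beside those over all protein-coding genes, with exact Clopper-Pearson intervals at 95%. The placing of summits was tested on simulated data, where 200 of 200 planted summits were recovered over 19973 genes.

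The genes and lists were chosen with earlier results of these data known. Named are genes with an IDR peak, within joint rank 5000, the best 3 of each of the 5 classes, those without any summit, and those just outside a rank limit. Other genes were named after their values were seen. The alternatives were other windows, 5′ ends, rank limits and distances, and each replicate alone.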

Additional observations from a re-analysis of the deposited data

How the results depend on the processing

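The 7 counts and medians were each recomputed under those of 12 other settings that apply to them, and in these the counts stayed within 1.5 times and the medians within the spread between replicates unless named here. With an IDR peak there was 1 gene, beside 2.22% of all genes. The count became 2, beside 2.92%, with 2000 bp upstream, where pbs-5 joined at IDR rank 52. It became 0, beside 1.09%, among IDR peaks above the list's median signal. Among the first 634 peaks of a single replicate it was 1 to 2. Those were rpt-6 and ubc-6 without replicate 2, beside 2.02%, and ubc-12 without replicate 1, beside 2.19%. Within rank 5000 there were 13 genes, and 8 to 13 with either replicate left out. The 8, without replicate 1, stood beside 10.1% of all genes. At a limit of 2000 there were 6, beside 5.35% of all genes. Summits of both replicates were in 30 genes, beside 25.2% of all genes. They were in 16, beside 13.6%, when they had to lie within 100 bp of each other.

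The median joint rank of the core was 19598, and 25334 both with 500 bp upstream and with summits given to the nearest 5′ end alone. Leaving out a replicate gave 13208 to 18615. For the conjugating enzymes the 14468 became 20172 and 24936 under the same settings and 11696 to 19248. For the cap the 17652 became 15462 to 24647. The cause of these moves was not tested.

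No paired analysis was possible because there was 1 group. Low ranks rest on signals close to one another, and 2 replicates give no error for a single promoter.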

Other observations

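The strongest peak within 2000 bp upstream of any of the 54 genes lay outside the promoter windows used. With the window widened to 2000 bp upstream, the beta subunit gene pbs-5 held an IDR peak of rank 52, ahead of the rank 558 of ubc-6. In its 1000 bp window pbs-5 had no joint summit. The gene K05C4.2 ends close upstream of pbs-5 on the same strand.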
